A study of Mus musculus with 12 samples.

Results

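Aldehyde dehydrogenases, a phenol sulfotransferase and the drug efflux pumps named in studies of stem cells were examined as 1 group of 8 genes. The members were chosen from a list of names (Aldh1a1, Aldh2, Aldh9a1, Aldh3a2, Sult1a1, Abcg2, Abcb1a and Abcb1b) of 37530 genes built from the deposited exon counts. They were put forward because of the levels of Aldh1a1 and Sult1a1 in stem cells with MLL-ENL, so the comparison of MLL-ENL with wild type in stem cells is described below without a test. RNA came from 12 mouse libraries in 4 groups of 3. Haematopoietic stem cells (HSC) had been sorted as lineage-negative cells carrying Sca1, Kit and CD150 but not CD48. Granulocyte and macrophage precursors (preGM) had been sorted as lineage-negative Kit-positive cells without Sca1, CD150, CD105, CD41 or CD16/32. Each cell type came from C57bl/6 wild-type mice (WT) and from the strain Col1a1-MLL/ENL (called MLL-ENL here), in which the leukaemia fusion of the histone methyltransferase MLL with ENL is labelled at Col1a1. Doxycycline (1 µg/ml) was present throughout the 48 h of culture in all 4 groups, WT cells too, beside SCF, IL3 and G-CSF. Because every MLL-ENL library had received the drug, the fusion and the strain background cannot be told apart. The promoter that drives the fusion and the age of the mice are not given in the sources used here. The labels name no separate animals or cultures behind the replicates, so p-values reflect library-to-library spread alone, possibly technical.

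Aldehyde dehydrogenases oxidise reactive aldehydes to acids, and high activity of these enzymes is used to sort stem and progenitor cells. Sulfotransferases attach sulfate from an activated donor to phenols and drugs, which makes them easier to excrete. ABC efflux pumps use ATP to push drugs and dyes out of the cell, and the exclusion of dye by Abcg2 and the P-glycoproteins marks the side population of the bone marrow. Among the members, Aldh1a1 oxidises retinaldehyde to retinoic acid in the cytosol, Aldh2 clears acetaldehyde in mitochondria, Aldh3a2 oxidises fatty aldehydes and Aldh9a1 oxidises aminoaldehydes. Abcb1a and Abcb1b are the pair of mouse genes that encode P-glycoprotein.

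Several members have near copies in the genome, which limits what a read count can assign to them. In GENCODE M21 on GRCm38, Aldh1a1 lies at chr19:20492715-20643465 on the plus strand, and its coding sequence was 91.6% identical to that of Aldh1a7 over 1506 bases. Abcb1a (chr5:8660077-8748575) and Abcb1b (chr5:8798147-8866315) lie side by side on the plus strand and were 88.1% identical over 3822 aligned coding bases, with an identical run of 338 bases. The first 60 coding bases of both pairs are shown because they show how close the copies are. Capitals mark the bases that differ within a pair.
Aldh1a1: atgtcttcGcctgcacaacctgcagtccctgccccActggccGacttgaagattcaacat
Aldh1a7: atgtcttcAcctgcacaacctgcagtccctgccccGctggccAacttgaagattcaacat
Abcb1a: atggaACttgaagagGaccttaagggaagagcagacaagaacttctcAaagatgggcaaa
Abcb1b: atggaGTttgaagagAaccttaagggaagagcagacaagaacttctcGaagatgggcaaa
Of the 50-base stretches of the Aldh1a1 transcript, 7.54% also occurred in Aldh1a7. For Abcb1a and Abcb1b the shares found in another gene were 18.6% and 19.6%, and for Sult1a1 (chr7:126672865-126676432, minus strand) 8.25%, mostly in the gene model Gm6939. Aldh9a1, Aldh3a2 and Abcg2 had no such stretch. Aldh1a7 itself held at most 22 counts in any library, and 0 to 8 in the HSC libraries.

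Aldh1a1 and Sult1a1 were the members whose levels moved together most closely across the libraries, with a Pearson r of 0.94 between their log2 CPM over the 12 libraries, which include the HSC libraries that drew attention to them. The 250 bases before the RefSeq start site of each are shown for that reason (GRCm38.p6, 5′ to 3′ on the strand of the gene). The last few bases of both windows lie in exon 1 of the GENCODE model. Capitals mark matches on either strand to the CCAAT box (CCAAT) and the GATA site (AGATAA). The Aldh1a1 window is chr19:20601718-20601967 on the plus strand, and the Sult1a1 window is chr7:126676419-126676668 on the minus strand.
Aldh1a1: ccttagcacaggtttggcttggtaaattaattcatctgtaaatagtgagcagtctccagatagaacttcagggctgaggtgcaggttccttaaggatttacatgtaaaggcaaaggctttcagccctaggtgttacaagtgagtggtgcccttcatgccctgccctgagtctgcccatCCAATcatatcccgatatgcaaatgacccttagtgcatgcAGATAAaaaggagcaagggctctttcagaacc
Sult1a1: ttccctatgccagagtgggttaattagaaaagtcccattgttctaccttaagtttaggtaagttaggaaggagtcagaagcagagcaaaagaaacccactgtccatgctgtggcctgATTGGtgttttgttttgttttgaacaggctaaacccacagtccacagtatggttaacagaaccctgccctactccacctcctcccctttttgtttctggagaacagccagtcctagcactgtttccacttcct
The CCAAT match lay at position -72 from the start in Aldh1a1 and at position -133 in Sult1a1, and 33.9% of 32851 mouse promoter windows of the same length held one. A GATA match stood at position -32 of Aldh1a1, as in 9.99% of all windows, and none was found in the Sult1a1 window. Neither window held the TATA box (TATAAA), the GC box (GGGCGG), the aryl hydrocarbon receptor core (GCGTG) or the antioxidant response element (TGACNNNGC). These letters occurred in 12.4%, 32.7%, 28.2% and 10.2% of all windows. An entry was found for 7 of the 8 members. A second Aldh1a1 window, upstream of a start that no counted exon used, held none of the 6 motifs.

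Gene counts per library averaged 15.98 ± 1.92 megacounts for WT HSC and 21.2 ± 2.24 for MLL-ENL HSC, and the preGM libraries were deeper, at 41.2 ± 5.61 for WT and 44.0 ± 5.97 for MLL-ENL (SD, n = 3 each). Levels are given as CPM, counts per megacount after TMM scaling, and a count of 3 corresponded to 0.163, 0.107, 0.105 and 0.0789 CPM in these groups. The sorted labels were checked on marker genes. The summed level of 9 stem cell markers ranged from 467 to 529 CPM in HSC of WT mice and from 615 to 693 CPM in those with MLL-ENL, against 31.6 to 40.6 in the preGM libraries. The 8 precursor markers summed to 27114 to 29930 CPM in preGM of WT mice and 12699 to 16159 CPM in those with MLL-ENL, against 239 to 430 in HSC. A pair of preGM libraries stood apart in how evenly reads lay along genes. Over 4635 genes, the median share of counts in the exons on the 5′ side of the midpoint was 42.8% in MLL-ENL preGM replicate 1 against 33.6% and 34.4% in the other 2 of its group. It was 28.6% in WT preGM replicate 2 against 36.7% and 36.9%.

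**Figure D1:**
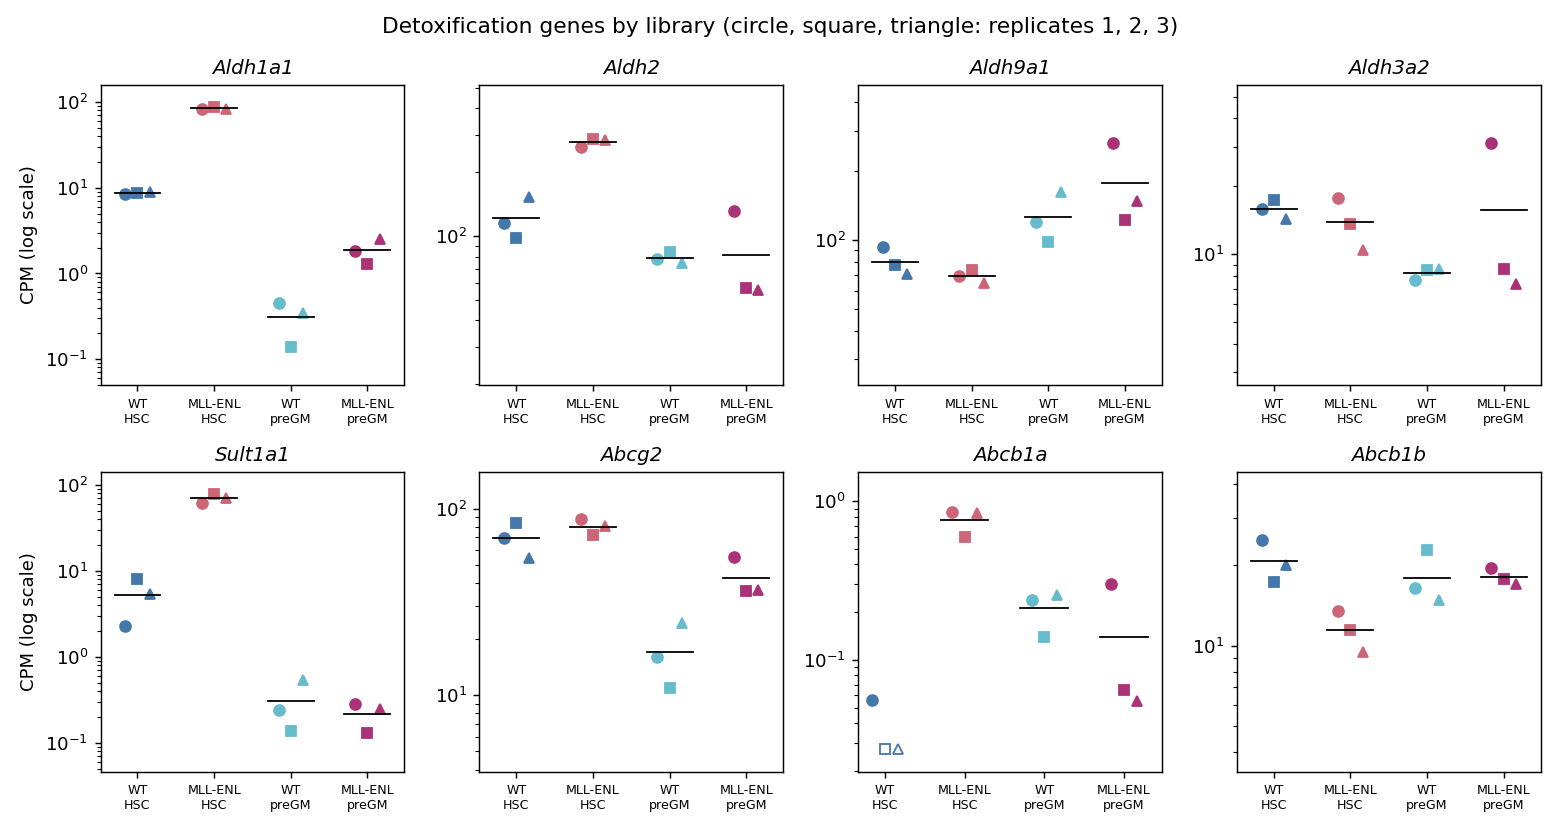
CPM (log axis) of the 8 members in the 12 libraries, with a bar at each group mean and open symbols at the lower edge for libraries with 0 counts (the WT HSC mean of Abcb1a lies below its axis). Aldh1a1 and Sult1a1 stood between 60.7 and 88.1 CPM in every MLL-ENL HSC library and at 2.54 CPM or lower in every preGM library.

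In WT HSC, the highest members by RPKM (counts per kilobase and megacount) were Aldh9a1 at 28.3 ± 3.94 and Aldh2 at 25.9 ± 6.02, whose ranges overlapped (SD, n = 3 in each group). Abcg2 followed at 13.9 ± 2.98 RPKM, apart from the genes above and below it. Abcb1b, Aldh1a1, Sult1a1 and Aldh3a2 lay between 4.75 and 2.81 RPKM, each overlapping its neighbour, and Abcb1a was lowest at 0.00340. In MLL-ENL HSC the order began with Aldh2 at 58.8 ± 2.85 RPKM, then Sult1a1 at 46.6 ± 5.97 and Aldh1a1 at 41.3 ± 1.41, and the last 2 overlapped. In WT preGM, Aldh9a1 led at 44.5 ± 11.6 RPKM and Aldh2 came next at 16.7 ± 1.02. Sult1a1 and Aldh1a1 stood near the bottom there, at 0.204 ± 0.139 and 0.151 ± 0.0763 RPKM. The MLL-ENL preGM order again began with Aldh9a1 (62.7 ± 26.7 RPKM), Aldh2 (17.3 ± 9.21) and Abcg2 (8.55 ± 2.15), whose ranges did not overlap.

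MLL-ENL HSC held far more Aldh1a1 and Sult1a1 RNA than WT HSC. Aldh1a1 stood at 8.38, 8.70 and 9.05 CPM in the WT HSC libraries and at 83.7, 88.1 and 82.6 CPM with MLL-ENL. Sult1a1 stood at 2.29, 7.97 and 5.35 CPM in WT HSC and at 60.7, 78.6 and 70.7 CPM with MLL-ENL. The groups lay far apart for both genes, and the WT libraries of Sult1a1 spread more widely than those of Aldh1a1. The log2 differences were 3.28 ± 0.29 for Aldh1a1 and 3.74 ± 0.41 for Sult1a1 (SE). In these bulk libraries fewer cells of a type and less RNA per cell cannot be told apart. On its terminal exon alone Aldh1a1 stood at 11.6, 11.2 and 16.6 CPM against 111, 104 and 105 CPM. Signs of RNA quality differed between the same groups without overlap. Introns held 4.79 to 5.96 counts per 100 gene counts with MLL-ENL and 3.72 to 4.10 in WT HSC. Mitochondrial genes held 6.33% to 6.71% of counts against 5.40% to 5.92%, and the median 5′ share was 28.3% to 32.2% against 24.2% to 28.0%. Their part in the differences was not tested.

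The mitochondrial enzyme Aldh2 was also higher in MLL-ENL HSC, at 261, 286 and 283 CPM against 115, 97.4 and 153 CPM in WT (log2 1.18 ± 0.31). Its exons 1 to 5 held 9.62% to 14.7% of its counts in MLL-ENL HSC and 2.13% to 3.998% in WT HSC, and on the terminal exon alone the log2 difference was 0.74. The part of this uneven coverage in the difference was not tested further. Aldh9a1 and Aldh3a2 overlapped between the groups, at 64.9 to 73.6 against 70.7 to 92.5 CPM and at 10.4 to 17.7 against 14.3 to 17.3 CPM. The dye pump Abcg2 overlapped too, at 72.0 to 87.6 CPM with MLL-ENL and 54.5 to 84.2 CPM in WT.

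The P-glycoprotein genes lay on opposite sides of 0 in this comparison. Abcb1b was lower in MLL-ENL HSC, at 13.5, 11.5 and 9.48 CPM against 24.7, 17.2 and 19.9 CPM (log2 -0.85 ± 0.24). Abcb1a had 1, 0 and 0 counts in WT HSC and 27, 15 and 24 with MLL-ENL, a ratio of 43.7 with an exact 95% interval of 7.57 to 1751 that covers counting error only. Introns of Abcb1a held 28, 0 and 17 counts in the same WT libraries, so the few reads of the locus lay mostly outside its exons there. With MLL-ENL the introns held 5, 1 and 8 counts, fewer than the exons. In CPM the introns overlapped, at 0.0398 to 0.283 with MLL-ENL against 0 to 1.57 in WT. In all, the CPM ranges of 4 members lay higher and that of 1 lay lower. Such ranges were apart for 34.8% of the 15704 genes tested, 17.8% upward and 17.0% downward, and 4.11% of the genes passed the test across all genes in this comparison. The counts of members are given as a description, since the choice of members used this contrast.

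Markers of other cells also differed between the HSC groups. The 6 endothelial markers summed to 202 to 212 CPM with MLL-ENL against 118 to 143 CPM in WT, with 3 higher and 3 overlapping. Most of the sum was Esam, at 130 to 143 against 83.1 to 85.6 CPM. The vascular cadherin Cdh5 had 0, 0 and 3 counts with MLL-ENL against 9, 12 and 0 in WT. The 10 megakaryocyte and erythroid markers summed to 236 to 280 CPM against 648 to 798 CPM, and the list was split. Pf4, which encodes a platelet chemokine, lay lower with MLL-ENL at 30.8 to 67.9 against 422 to 565 CPM, and so did Hbb-bt, which encodes a beta globin, at 18.9 to 21.4 against 79.6 to 105 CPM. The von Willebrand factor gene Vwf (74.3 to 103 against 40.0 to 45.2 CPM) and the platelet glycoprotein gene Gp9 (46.7 to 50.2 against 31.6 to 41.9 CPM) lay higher, and the other 6 overlapped. Without Pf4 and Hbb-bt the sum was 184 to 219 CPM with MLL-ENL against 135 to 147 CPM. As these were the only 2 that lay lower, leaving them out favours a higher sum. Of the 9 stem cell markers, whose sums are given above, 4 lay higher with MLL-ENL, 2 lower and 3 overlapped. Stromal markers summed to 11.1 to 14.8 CPM against 3.44 to 6.09 CPM, with counts for 6 of 7 and for 5 of 7 genes, and the fibroblast gene Dcn at 0 in both groups. The part of these cells in the values above was not tested.

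In preGM, libraries other than those that had put the members forward, Aldh1a1 and Abcg2 rose with MLL-ENL. These were 2 of the 8 members, where 6.77% of all genes tested passed the test, with 3.7% of genes higher and 3.07% lower. Aldh1a1 stood at 0.448, 0.140 and 0.342 CPM in WT preGM (15, 3 and 12 counts) and at 1.81, 1.30 and 2.54 CPM with MLL-ENL (96, 40 and 92 counts). Every MLL-ENL library lay above every WT library, with a log2 difference of 2.52 ± 0.34 (edgeR adjusted p = 0.0002824). Even so, these levels were far below those of either HSC group. On the terminal exon alone the log2 difference was 1.56 (edgeR adjusted p = 0.04734), and there the groups overlapped. The WT libraries stood at 0.862, 0.206 and 0.743 CPM on that exon and those with MLL-ENL at 1.86, 0.823 and 2.98 CPM. Exons 1 to 5 held 0% to 8.33% of the gene's counts in WT preGM and 9.78% to 32.5% with MLL-ENL. The part of this coverage in the difference was not tested. Without both libraries that stood apart the log2 difference of the whole gene was 2.29 (adjusted p = 0.0005423).

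Abcg2 stood at 16.04, 10.9 and 24.5 CPM in WT preGM and at 55.0, 36.3 and 36.5 CPM with MLL-ENL, again without overlap (log2 1.31 ± 0.29, edgeR adjusted p = 0.01187). This call was the less firm of the pair. The adjusted p was 0.06365 without WT preGM replicate 1, 0.06993 on the terminal exon alone (log2 0.92) and 0.07723 with only the preGM libraries in the model. Without both libraries that stood apart it was 0.02952, with a log2 difference of 0.85.

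Sult1a1, in contrast to its level in HSC, was close to the limit set by a count of 3 in both preGM groups. WT preGM libraries had 8, 3 and 19 counts of Sult1a1 (0.239, 0.140 and 0.541 CPM), and MLL-ENL preGM libraries had 15, 4 and 9 counts (0.282, 0.130 and 0.248 CPM). The groups overlapped, and the log2 difference was -0.50 ± 0.57 (edgeR adjusted p = 0.6216). Set against the HSC value, the response of Sult1a1 was lower in preGM by a log2 difference of -4.24 ± 0.70. The corresponding difference was -0.76 ± 0.45 for Aldh1a1, 1.11 ± 0.41 for Abcg2 and 0.86 ± 0.34 for Abcb1b. These differences of responses use the HSC libraries and are given without a test.

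The other aldehyde dehydrogenases did not pass the test in preGM, and 1 library set much of what they showed. Aldh2 stood at 78.1, 83.9 and 74.4 CPM in WT preGM and at 131, 56.9 and 55.6 CPM with MLL-ENL (log2 0.05 ± 0.31, edgeR adjusted p = 0.947). Aldh9a1 stood at 119, 97.4 and 162 CPM against 264, 121 and 148 CPM (log2 0.49 ± 0.29, adjusted p = 0.3104). Aldh3a2 stood at 7.67, 8.47 and 8.60 CPM against 31.3, 8.58 and 7.37 CPM (log2 0.94 ± 0.42, adjusted p = 0.1947). In all 3 genes MLL-ENL preGM replicate 1 was the highest of the 6 preGM libraries. Its level was 2.33 times the mean of the other 2 libraries of its group for Aldh2, 1.96 times for Aldh9a1 and 3.92 times for Aldh3a2. Without it, the log2 difference of Aldh2 was -0.49 (adjusted p = 0.2505) and that of Aldh3a2 was -0.05 (adjusted p = 0.9494).

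Exon counts show where the additional reads of that library lay. Exons 1 to 5 of Aldh2 held 29.1% of the gene's counts in MLL-ENL preGM replicate 1 and 4.16% to 9.57% in the other 5 preGM libraries. On the terminal exon of Aldh2 the 3 MLL-ENL libraries were nearly alike, at 47.3, 47.5 and 48.8 CPM, and all lay below the WT libraries at 59.9, 77.3 and 59.0 CPM. The log2 difference on that exon was -0.45 (edgeR adjusted p = 0.1819), opposite in sign to that of the whole gene. Aldh3a2 kept its spread there, at 40.3, 15.3 and 13.3 CPM, and Aldh9a1 stood at 227, 141 and 161 CPM.

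**Figure D2:**
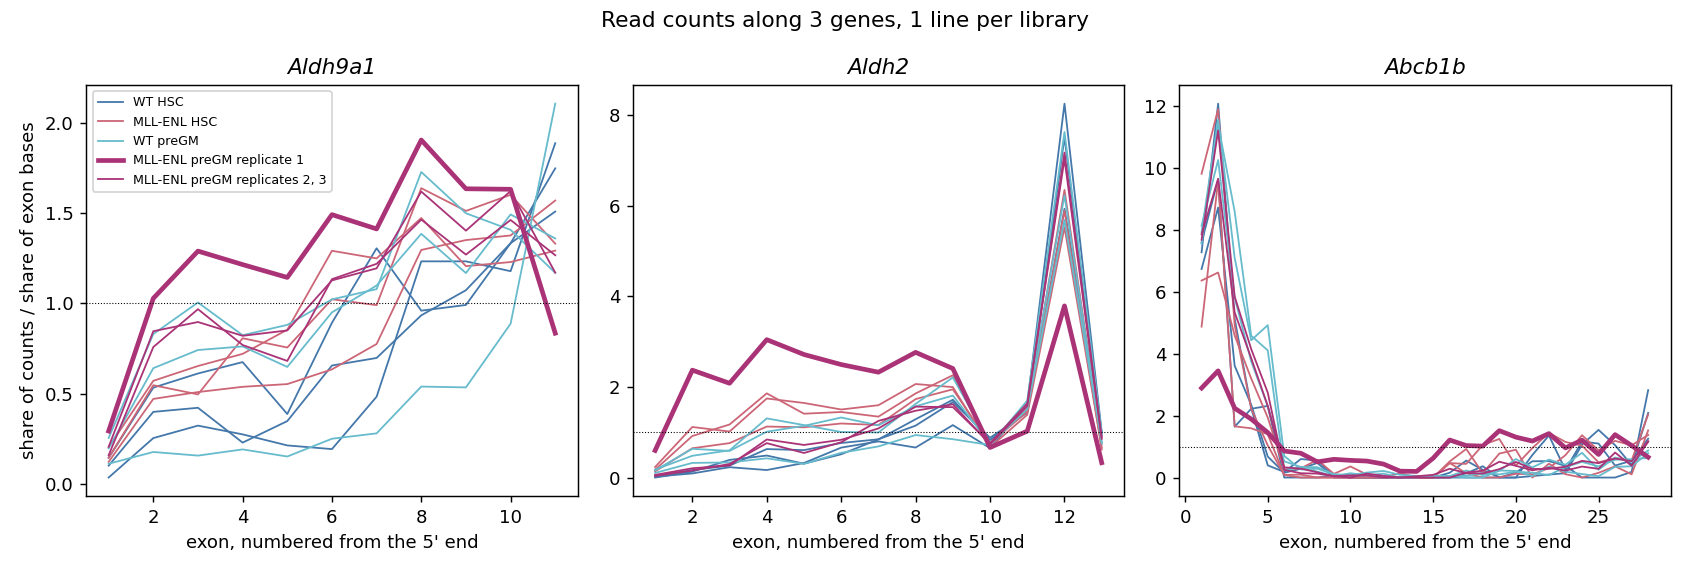
Share of a gene's counts in each exon divided by the exon's share of the counted bases, so that 1 (dotted) means even coverage, against exon number from the 5′ end, with 1 line per library. MLL-ENL preGM replicate 1 (thick line) had the most counts in the first exons of Aldh2, 29.1% in exons 1 to 5, and the smallest share in exons 1 to 5 of Abcb1b, 26.7%.

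Abcb1b showed an uneven profile in every library. Its exons 1 to 5 make up 11.1% of the counted bases but held 50.2% to 58.4% of its counts in HSC of WT mice and 41.4% to 67.0% in HSC with MLL-ENL, and in WT preGM 67.2% to 76.2%. In MLL-ENL preGM the shares were 26.7%, 69.4% and 65.2%, with replicate 1 the lowest of the 12 libraries. In 10 of the 12 libraries these 5 exons held most of the counts of the gene. Of its counted exon bases, 3.29% also lie in exons of the gene model Gm5106, and the counts took no account of strand. In exon 1, 54.8% of the 50-base stretches occur in another gene as well. The part of reads from other genes in this profile was not tested. Summed over the gene, Abcb1b stood at 16.3, 22.7 and 14.8 CPM in WT preGM and at 19.4, 17.7 and 17.0 CPM with MLL-ENL (log2 0.01 ± 0.24, edgeR adjusted p = 0.9874). Abcb1a had 8, 3 and 9 counts in WT preGM and 16, 2 and 2 with MLL-ENL, a ratio of 0.750 with an exact 95% interval of 0.383 to 1.47 for counting error (edgeR adjusted p = 0.7265).

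Marker sums bear on the preGM comparison as well. The 9 stem cell markers summed to 32.5 to 40.6 CPM in WT preGM and 31.6 to 37.8 CPM with MLL-ENL, but single markers differed. Ly6a, the gene of the Sca1 antigen, lay lower with MLL-ENL (5.04 to 8.33 against 20.2 to 28.0 CPM). Another 5 lay higher without overlap, Mecom at 5.30 to 8.79 against 0.399 to 0.652 CPM, Slamf1 at 0.978 to 1.82 against 0.0896 to 0.186, Procr at 3.91 to 7.23 against 2.28 to 2.47, Hoxb5 at 0.414 to 0.442 against 0.0285 to 0.0466, and Fgd5 at 0.162 to 0.282 against 0 to 0.0466. The other 3 overlapped. Without Ly6a the stem cell markers summed to 25.2 to 32.7 CPM with MLL-ENL and 12.3 to 13.4 CPM in WT preGM. As Ly6a was the only one that lay lower, leaving it out favours a higher sum. The 6 endothelial markers summed to 37.3 to 117 CPM with MLL-ENL against 31.6 to 34.5 CPM in WT preGM, with 3 higher and 3 overlapping. Most of the sum was Pecam1, which overlapped. It stood at 110, 32.9 and 36.8 CPM with MLL-ENL, highest in replicate 1, against 30.6 to 33.4 CPM. The vascular cadherin Cdh5 was at 0 in WT preGM and had 0, 0 and 2 counts with MLL-ENL. The sum of the 8 precursor markers was lower with MLL-ENL, as given above. Of these 6 lay lower, and Csf1r and Mpo overlapped (Mpo at 5352 to 12106 against 2432 to 7588 CPM). The 6 mast cell, basophil and eosinophil markers summed to 186 to 285 CPM against 1433 to 2243 CPM. Of these 4 lay lower, and Fcer1a and Ms4a2 overlapped. The 10 megakaryocyte and erythroid markers summed to 89.9 to 102 CPM with MLL-ENL against 64.5 to 148 CPM. Gata1 was 1 of 4 that lay higher (48.3 to 50.7 against 7.96 to 30.2 CPM). Hbb-bt was 1 of 3 that lay lower (2.31 to 8.19 against 16.2 to 42.2 CPM), and 3 overlapped. Without Pf4 and Hbb-bt the sum was 71.5 to 94.9 against 23.9 to 46.0 CPM. The 7 stromal markers summed to 8.74 to 14.0 against 2.11 to 2.78 CPM, with 2 higher and 5 overlapping. The part of the markers of all these lists in the results, those for Aldh1a1 and Abcg2 included, was not tested.

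**Figure D3:**
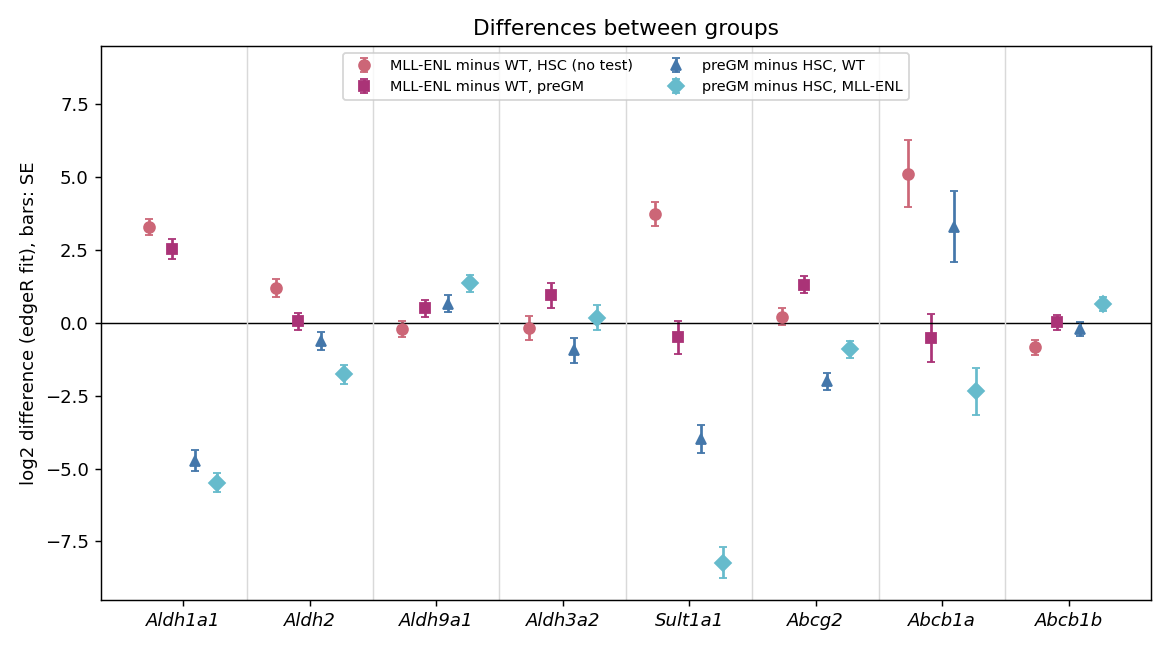
Log2 differences of the 8 members in 4 comparisons, with bars of 1 SE, on the edgeR scale with all 12 libraries in the model. Aldh1a1 differed by 3.28 in HSC and 2.52 in preGM between the strains, while Sult1a1 differed by 3.74 and -0.50.

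The third question is how the members differ between the cell types, preGM against HSC, within each strain. Aldh1a1 and Sult1a1 are not counted here, and their values are given without a p, because the comparisons share the HSC libraries that drew attention to them. Of the other 6 members, 2 passed the test in WT, Abcb1a higher and Abcg2 lower in preGM, where 38.5% of all genes did (18.4% higher, 20.1% lower). With MLL-ENL 5 of the 6 did, 2 higher and 3 lower, where the background was 41.5% (20.4% higher, 21.1% lower). Abcb1a, among these 3, passed the low-count filter through the MLL-ENL HSC libraries alone. The filter thus favoured a fall from that group, and its call is not support. The median log2 difference of the 6 was -0.42 in WT and -0.36 with MLL-ENL, against -0.03 and 0.00 over all genes tested. These counts moved with single libraries, and so did the background. Without MLL-ENL preGM replicate 1 the WT count was 5 of 6 (44.5% of all genes), and it was 1 of 6 without any of the 9 libraries named below for Abcb1a. The MLL-ENL count was 3 of 6 without MLL-ENL HSC replicate 1 (30.4%), MLL-ENL HSC replicate 2 (31.2%) or WT preGM replicate 1 (38.3%). It was 2 of 6 without MLL-ENL HSC replicate 3 (30.6%), or without MLL-ENL preGM replicate 2 (34.5%) or 3 (32.9%). Without both libraries that stood apart the counts were 5 and 6 of 6, where 50.9% and 51.6% of all genes passed. Every preGM library also had fewer intron counts per 100 gene counts than any HSC library (1.24 to 3.50 against 3.72 to 5.96) and a smaller mitochondrial share (1.83% to 4.09% against 5.40% to 6.71%), and the part of these in the results was not tested. Aldh1a1 was lower in preGM by a log2 difference of -4.73 ± 0.35 in WT and -5.49 ± 0.32 with MLL-ENL. For Sult1a1 these were -4.00 ± 0.48 and -8.23 ± 0.53. With library sizes alone in place of TMM, the median gene moved to -0.73 in WT and -0.56 with MLL-ENL, and the share of calls higher in preGM fell from 47.8% to 16.2% and from 49.1% to 18.1%. Differences between the cell types are therefore relative to the typical gene.

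Abcg2 fell from HSC to preGM in both strains. It went from 69.3, 84.2 and 54.5 CPM in WT HSC to 16.04, 10.9 and 24.5 CPM in WT preGM, a log2 difference of -2.01 ± 0.30 (edgeR adjusted p = 8e-05). With MLL-ENL it went from 87.6, 72.0 and 80.3 CPM to 55.0, 36.3 and 36.5 CPM (log2 -0.91 ± 0.29, adjusted p = 0.02009). The WT fall kept its call under every alternative tried. The MLL-ENL fall lost its call without any 1 of 4 MLL-ENL libraries (replicates 1 and 3 of HSC, 2 and 3 of preGM), with adjusted p between 0.05501 and 0.07893.

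Aldh2 fell and Aldh9a1 rose from HSC to preGM with MLL-ENL. The Aldh2 difference was -1.77 ± 0.32 on the log2 scale (edgeR adjusted p = 0.0004558), and the 3 preGM libraries (55.6 to 131 CPM) all lay below the HSC libraries (261 to 286 CPM). Aldh9a1 differed by 1.36 ± 0.29 (adjusted p = 0.001894), from 64.9 to 73.6 CPM in HSC to 121 to 264 CPM in preGM. With library sizes alone that rise was 0.85 and did not pass (adjusted p = 0.07722). In WT the same genes moved less far and did not pass, with log2 differences of -0.63 ± 0.31 for Aldh2 (adjusted p = 0.1216) and 0.65 ± 0.29 for Aldh9a1 (adjusted p = 0.08702), the latter -0.02 with library sizes alone.

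Aldh3a2 was at 7.67 to 8.60 CPM in WT preGM, below its 14.3 to 17.3 CPM in WT HSC, with a log2 difference of -0.94 ± 0.43 that did not pass (edgeR adjusted p = 0.09226). These 3 WT differences did pass once MLL-ENL preGM replicate 1 was left out of the shared estimate of the spread, with adjusted p of 0.01369 for Aldh2, 0.01721 for Aldh9a1 and 0.00365 for Aldh3a2. No WT library changed in that step. With MLL-ENL, Aldh3a2 differed by 0.18 ± 0.42 (adjusted p = 0.7523), and without replicate 1 of the MLL-ENL preGM group by -0.80 (adjusted p = 0.01855), now in the same direction as in WT.

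The P-glycoprotein genes depended most on how reads were counted. Abcb1b stood at 16.3 to 22.7 CPM in WT preGM against 17.2 to 24.7 CPM in WT HSC (log2 -0.20 ± 0.24, edgeR adjusted p = 0.5387). On its terminal exon it stood at 14.0, 5.96 and 14.9 CPM in WT HSC and at 3.23, 5.16 and 3.99 CPM in WT preGM, a log2 difference of -1.49 (adjusted p = 0.004367). In MLL-ENL cells the whole gene rose by 0.65 ± 0.24 from HSC to preGM (adjusted p = 0.04099), while the terminal exon differed by 0.06 (adjusted p = 0.9115). That call was lost in 12 of 22 alternatives, among them the removal of any 1 MLL-ENL preGM library, of HSC replicate 2 or 3 with MLL-ENL, or of the WT libraries HSC replicate 3 and preGM replicate 1.

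Abcb1a, barely detected, went from 1, 0 and 0 counts in WT HSC to 8, 3 and 9 in WT preGM, a ratio of 12.5 with an exact 95% interval of 1.996 to 517. Its call in WT (edgeR adjusted p = 0.04148) was lost in 15 of 21 alternatives, with adjusted p from 0.0289 to 0.6105 over all of them. The libraries whose removal ended it were WT HSC replicates 2 and 3, MLL-ENL HSC replicates 1, 2 and 3, WT preGM replicates 1 and 3 and MLL-ENL preGM replicates 2 and 3. With MLL-ENL the gene went the other way, from 27, 15 and 24 counts in HSC to 16, 2 and 2 in the more deeply sequenced preGM libraries, a ratio of 0.214 with an interval of 0.123 to 0.358 (log2 -2.35, edgeR adjusted p = 0.02842). MLL-ENL preGM replicate 1 held 16 of the 20 preGM counts, and without it the log2 difference was -3.58 (adjusted p = 0.01181), within a range of -3.58 to -1.99 as each library was left out in turn. This call was lost in 8 of 22 alternatives. It was lost when any 1 HSC library with MLL-ENL was left out, or preGM replicate 2 or 3 of that strain. It was also lost without preGM replicate 1 or 3 of WT, and with no filter on low counts. Abcb1a passed the low-count filter through the MLL-ENL HSC libraries alone. A fall from that group was therefore favoured in advance, and its p is not support.

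**Figure D4:**
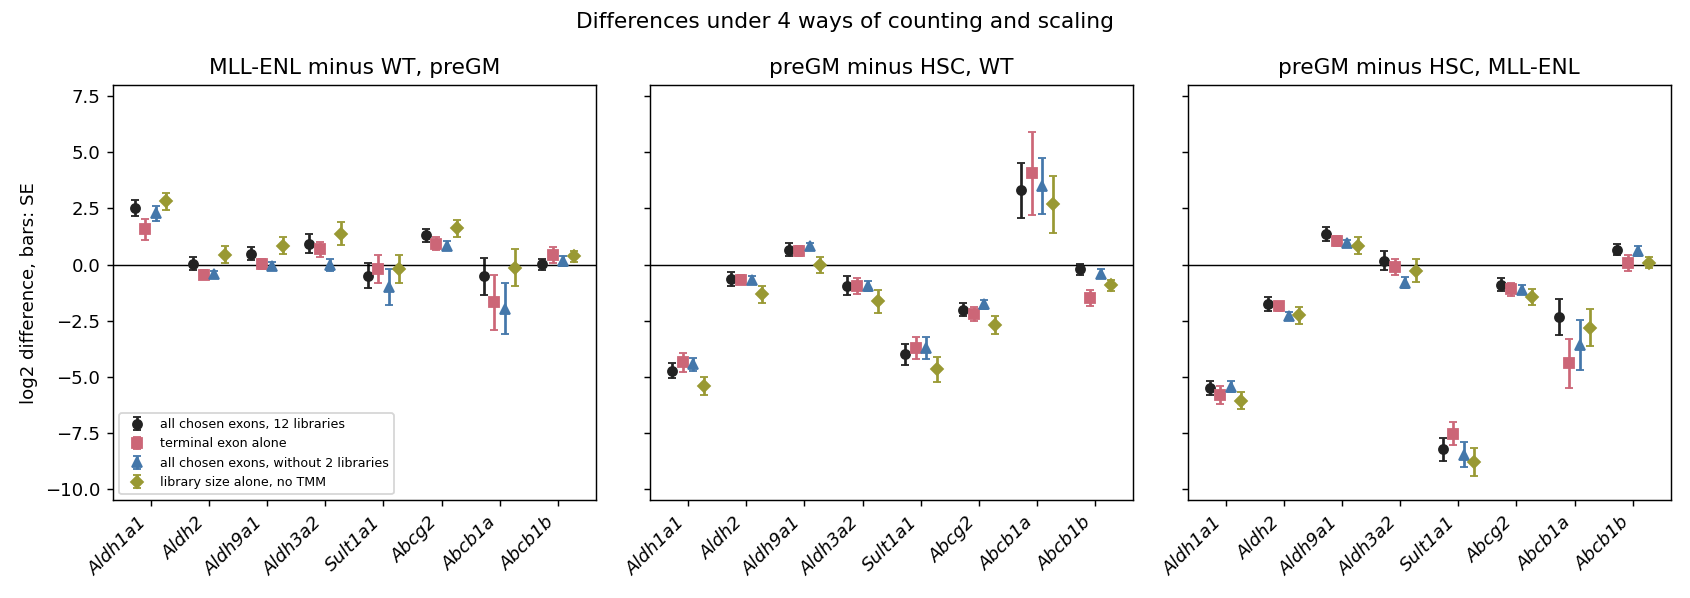
Log2 differences of the 8 members, with bars of 1 SE, in the 3 tested comparisons under 4 settings: all counted exons in 12 libraries, the terminal exon alone, without WT preGM replicate 2 and MLL-ENL preGM replicate 1, and library sizes alone. Terminal exon counts put Aldh2 at -0.45 in place of 0.05 in preGM, and Abcb1b at -1.49 in place of -0.20 between the WT cell types.

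Other genes of the same pathways were examined in lists chosen by function. Over all genes tested, 3.7% were higher and 3.07% lower with MLL-ENL in preGM. From HSC to preGM 18.4% rose and 20.1% fell in WT, and 20.4% rose and 21.1% fell with MLL-ENL. Other settings had other shares of genes passing between the cell types. Library sizes alone gave 46.7% in WT and 42.9% with MLL-ENL, with 16.2% and 18.1% of those calls rising. Leaving out both libraries that stood apart gave 50.9% and 51.6%. For MLL-ENL against WT in preGM these 2 settings gave 7.51% and 7.14%. Among 12 tested of 16 other aldehyde dehydrogenases, 1 was higher and 1 lower with MLL-ENL in preGM (median log2 0.92, against 0.08 over all genes). The folate enzyme Aldh1l1 was higher by 1.83 ± 0.43 (edgeR adjusted p = 0.01563) and did not pass on the terminal exon alone (adjusted p = 0.1283). Without both libraries that stood apart it was higher by 1.18 (adjusted p = 0.01563). Aldh3b1, which oxidises aldehydes from membrane lipids, was lower by -2.94 ± 0.50 (adjusted p = 0.001645). From HSC to preGM in WT, 5 rose and 4 fell. Aldh3b1 rose by 8.42 ± 0.76 on the log2 scale (adjusted p = 5.299e-07), and Aldh5a1, which clears succinic semialdehyde, fell by 3.24 ± 0.53 (adjusted p = 0.0001889). With MLL-ENL, 6 rose and 2 fell, and Aldh1a3, like Aldh1a1 a retinaldehyde dehydrogenase, rose by 3.12 ± 0.32 (adjusted p = 2.916e-06). With library sizes alone 3 rose and 5 fell with MLL-ENL.

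Of 16 other sulfation genes, which are 10 sulfotransferases and 6 genes that make, carry or degrade the sulfate donor and its products, 9 were tested. Papss2, which makes the activated sulfate that Sult1a1 uses, was lower with MLL-ENL in preGM by -1.35 ± 0.29 (edgeR adjusted p = 0.008679), the only call of this list there, and did not pass with library sizes alone (adjusted p = 0.08381). It rose from HSC to preGM by 5.47 ± 0.37 in WT (adjusted p = 2.459e-08) and by 3.91 ± 0.34 with MLL-ENL (adjusted p = 4.252e-07), the direction opposite to that of Sult1a1. In that cell type comparison 2 genes of the list rose and 1 fell in WT, and 3 rose and 1 fell with MLL-ENL. Of all genes, 38.5% passed in WT and 41.5% with MLL-ENL. The gene that fell was the sulfotransferase Sult4a1, by 5.44 ± 1.65 in WT (adjusted p = 0.01839) and by 2.52 ± 0.94 with MLL-ENL (adjusted p = 0.0449), the latter lost without both libraries that stood apart (adjusted p = 0.1204) and on the terminal exon alone (adjusted p = 0.07412). Library sizes alone gave 1 higher and 3 lower in WT, where 46.7% of all genes passed. Sult4a1 passed the low-count filter through HSC libraries alone, so its falls from HSC were favoured in advance. Bpnt1, which degrades the spent donor, rose by 1.35 ± 0.25 in WT (adjusted p = 0.0004838) and 1.60 ± 0.24 with MLL-ENL (adjusted p = 0.0001173), and the WT rise did not pass with library sizes alone (adjusted p = 0.08196).

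Of 15 other ABC exporters 13 were tested, and 3 of them fell from HSC to preGM in each strain, a share near that of all genes lower in preGM (20.1% in WT and 21.1% with MLL-ENL). The other 10 did not pass. Without the 2 libraries that stood apart 5 fell in WT and 7 with MLL-ENL, where 50.9% and 51.6% of all genes passed. Library sizes alone gave 9 and 6 that fell, where 46.7% and 42.9% of all genes passed, most of them lower. The cholesterol exporter Abca1 fell by 3.76 ± 0.66 in WT (edgeR adjusted p = 0.0003489) and by 2.43 ± 0.59 with MLL-ENL (adjusted p = 0.004169). Abcg3, a relative of Abcg2, fell by 3.75 ± 0.45 (adjusted p = 9.773e-06) and by 8.34 ± 0.56 (adjusted p = 3.855e-08). In preGM, Abcg3 was lower with MLL-ENL by -2.73 ± 0.64 (adjusted p = 0.01574), the only call among the 13, and thus on the other side of 0 from Abcg2. Without both libraries that stood apart it was lower by -3.78 (adjusted p = 0.02092), and from HSC to preGM with MLL-ENL it then fell by 9.54 (adjusted p = 4.364e-08).

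Retinoid genes, which act beside Aldh1a1, mostly fell from HSC to preGM in MLL-ENL cells. Of 10 tested of 18, 6 fell and 1 rose there (median log2 -1.38), and 8 fell and 0 rose with library sizes alone. Of all genes, 21.1% fell and 20.4% rose with MLL-ENL. Under library sizes alone 42.9% of all genes passed there, and 18.1% of those calls were higher. In WT 1 of the 10 rose and 1 fell (median log2 0.15), and 0 rose and 3 fell with library sizes alone. On terminal exons 1 rose and 3 fell in WT, and 0 rose and 5 fell with MLL-ENL. The difference between the strains was not tested. Cyp26b1, which degrades retinoic acid, fell by 7.45 ± 0.76 with MLL-ENL (edgeR adjusted p = 1.664e-05). It had 160, 145 and 121 counts in MLL-ENL HSC and 2, 1 and 0 in MLL-ENL preGM. Cyp26b1 and the receptor gene Rarb passed the low-count filter through the MLL-ENL HSC libraries alone. Their falls from that group were favoured in advance and are not support. In WT HSC they had 0, 0 and 0 and 0, 0 and 1 counts, so they could hardly fall there. The retinoic acid receptor gene Rara was lower with MLL-ENL in preGM by -1.93 ± 0.44 (adjusted p = 0.01305), the only call of this list there, and without the 2 libraries that stood apart the adjusted p was 0.07072.

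Glutathione genes were the list with the most genes tested, 18 of 21. In preGM with MLL-ENL 4 were lower and 1 higher (median log2 -0.46), where 3.07% and 3.7% of all genes were. Without the 2 libraries that stood apart 4 were higher and 4 lower, where 7.14% of all genes passed. Mgst1, a microsomal glutathione transferase, was lower by -2.32 ± 0.31 (edgeR adjusted p = 0.0002111), and Gstm1, a cytosolic transferase, by -2.003 ± 0.30 (adjusted p = 0.0005541). Mgst2 was lower by -1.70 ± 0.38 (adjusted p = 0.0129), and by -0.97 without both libraries that stood apart (adjusted p = 0.03772). Between the cell types this list was split, with 6 rising and 4 falling in WT and 5 each way with MLL-ENL (2 rising and 7 falling with library sizes alone). Of all genes, 38.5% passed in WT and 41.5% with MLL-ENL. Mgst2 rose by 6.12 ± 0.48 in WT (adjusted p = 1.115e-07), and Gstt1 fell by 2.66 ± 0.31 with MLL-ENL (adjusted p = 8.615e-06).

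The Fanconi genes, which repair the DNA crosslinks that aldehydes cause, had no call with MLL-ENL in preGM by edgeR, DESeq2 or limma among 14 tested, and 4 of them had an unadjusted edgeR p under 0.05. From HSC to preGM with MLL-ENL 5 of the 14 rose, where 20.4% of all genes did. Among the 5 were Fanca by 1.00 ± 0.27 (edgeR adjusted p = 0.008259), Fancb by 1.60 ± 0.49 (adjusted p = 0.01544) and Palb2 by 1.00 ± 0.32 (adjusted p = 0.01905). Without the 2 libraries that stood apart Fancb and Palb2 did not pass (adjusted p = 0.1913 and 0.08547). With library sizes alone none of the 14 rose and 3 fell, so the direction of this list depended on the scaling. Among 11 tested of 14 other aldehyde and alcohol enzymes, and among 8 tested of 11 xenobiotic sensors, edgeR, DESeq2 and limma called 0 genes with MLL-ENL in preGM, and 0 had an unadjusted edgeR p under 0.05. Between the cell types 1 of these enzymes rose and 1 fell in WT, and 4 rose and 3 fell with MLL-ENL. The shares of all genes that passed were 38.5% and 41.5%. With library sizes alone none of these enzymes rose in either strain. Without the 2 libraries that stood apart 4 rose and 2 fell in WT and 5 rose and 2 fell with MLL-ENL. Of all genes, 50.9% and 51.6% passed under that setting. Among the sensors, Nqo1, a quinone reductase, fell in WT by 1.15 ± 0.30 (edgeR adjusted p = 0.007154) and was the only call. With MLL-ENL, Nqo1 and the dioxin receptor gene Ahr fell, Ahr by 2.56 ± 0.45 (adjusted p = 0.0003548). With library sizes alone 4 sensors fell in each strain, where 46.7% of all genes passed in WT and 42.9% with MLL-ENL, most of them lower.

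The genes whose log2 CPM followed Aldh1a1 most closely over the 12 libraries were Ak1, Ormdl3, H2-Q6, H2-Q7 and Hoxb5os, with Pearson r from 0.98 to 0.99. For Sult1a1 they were Gm13133, Synm, Bpifb5, Cysltr2 and Bcam, with r of 0.98 for each. These are descriptions among 15703 other genes, and the points share 4 groups and their libraries. H2-Q6 and H2-Q7 are near-identical copies, so reads can be assigned to the wrong one. Aldh1a1 and Sult1a1 were not in each other's closest 5.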

How the data were processed

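RNA had been prepared with RNeasy micro columns and a SMARTer low-input amplification kit, per the labels. Each deposited file gives, for every exon, intron and transcript, a read count left as it was by the authors and an RPKM value that the authors computed from it. TopHat2 2.0.8, Bowtie2 2.1.0, HTSeq and edgeR are named in the submitters' processing notes, and no build is given in the sources used here. Of 93615 transcripts, 95.7% matched GENCODE M21 by identifier and 85.9% of those had identical exons (25 of 31 transcripts of the 8 genes). Deposited exon counts were summed over the non-overlapping exons with the most bases per gene. The counts took no account of strand: all 1839 tested exons inside introns of the opposite strand gave the intron at least as many counts.

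Genes with low counts were removed (filterByExpr, minimum count 10, minimum total 15), and 15704 were tested by quasi-likelihood in edgeR 4.0.16 (R 4.3.3), with all 12 libraries in 1 model, TMM scaling and robust dispersions. All 8 members passed the filter, Abcb1a through the MLL-ENL HSC libraries alone. Tests are two-sided, and adjusted p-values are Benjamini-Hochberg over the 15704 genes, with a threshold of 0.05. SE was the absolute log2 difference over the square root of F. Log2 CPM values used a prior count of 2. The script was tested on simulated data. No pair of libraries within a group agreed within sampling noise.

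The members and lists were chosen with earlier results of these data known. Named genes are the 8 members, up to 3 called genes per list and comparison with the largest log2 difference, and the 5 closest patterns for Aldh1a1 and Sult1a1. A gene that the rule names is not reported here. Alternatives were DESeq2 1.42.0, limma 3.58.1 on log2(RPKM + 0.1) and log2(RPKM + 1), library sizes alone, no filter, the longest transcript, only the groups compared, a replicate block, leaving out libraries, and, chosen after seeing the data, the terminal exon of the longest transcript. For limma the RPKM was recomputed per gene from the summed counts.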

Additional observations from a re-analysis of the deposited data

Results flagged for a closer look

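Abcb1a was singled out because every preGM library lay above every HSC library in WT and below every HSC library with MLL-ENL. Its log2 differences were 3.30 and -2.35, the first against a group with 1 count in all. The second is against the only group that took the gene past the low-count filter. The difference between the strains was not tested. The same pattern, groups apart in opposite directions, singled out 7 genes of the pathway lists, and in none of them was the difference between the effects tested. Between the strains in HSC and then in preGM, Abcg3 differed by 1.86 and -2.73, Mgst2 by 1.27 and -1.70, and Gstm1 by 0.56 and -2.003. Gstm2 differed by 1.35 and -0.71, and Ahr by 1.08 and -0.58. Between preGM and HSC in WT and then with MLL-ENL, Rara differed by 1.74 and -0.85, and Palb2 by -0.41 and 1.00.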

How the results depend on the processing

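In preGM, 2 members were called with MLL-ENL, and 1 was called with only the 2 groups in the model, with terminal exon counts alone and without WT preGM replicate 1, giving a range of 1 to 2 over the 12 libraries left out in turn. Between WT cell types the 4 called members, Aldh1a1 and Sult1a1 included (38.5% of all genes called), became 7 without both libraries that stood apart (50.9%) and 7 on terminal exons (41.5%), with a range of 3 to 7 when 1 library was left out (28.6% to 44.5%). With MLL-ENL the 7 called members (41.5%) ranged from 4 to 7 (30.4% to 45.2%). The causes were not tested. The genes called in preGM numbered 1063 in all, 1740 with DESeq2, 618 with limma on log2(RPKM + 1) and 566 without WT preGM replicate 1. The share of those calls that were higher was 54.7%, but 74.9% with library sizes alone and 64.4% with limma on log2(RPKM + 0.1), and the median gene moved from 0.08 to 0.41 and 0.30. For the cell types limma gave 18.8% higher calls in WT and 19.8% with MLL-ENL.

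Differences that had not passed the test changed sign under some settings. With MLL-ENL in preGM, Aldh2 was -1e-04 with DESeq2, -0.45 on terminal exons and -0.439 without both libraries that stood apart, and from -0.49 to 0.25 with 1 library left out. Abcb1b was -0.0225 with DESeq2 and -0.11 to 0.21 with 1 library left out. Without both libraries Aldh9a1 was -0.0633 and Aldh3a2 -0.0301, and with 1 left out Aldh3a2 ranged from -0.0477 to 1.27 and Sult1a1 from -0.77 to 0.20. Between WT cell types Aldh9a1 was -0.0208 with library sizes alone, -0.0218 with limma on log2(RPKM + 0.1) and -0.0195 on log2(RPKM + 1). With MLL-ENL Aldh3a2 was -0.28 with library sizes alone, -0.57 and -0.354 with limma at the smaller and larger pseudocount, -0.12 on terminal exons and -0.80 without both libraries, and from -0.80 to 0.52 with 1 left out.

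Replicate numbers did not pair the libraries: deviations of same-numbered libraries correlated from -0.10 to 0.10 over 18 pairs, and those of other numbers from -0.14 to 0.14. With a replicate block Aldh2 in preGM was -0.0128 (adjusted p = 0.9893), 864 genes were called in preGM, and the members called stayed at 2, 4 and 7. Low counts limited what could be said of Abcb1a in every group and of Sult1a1 in preGM, whose libraries were the deeper ones.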
